A study of Apis mellifera with 5 samples.

Results

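This account follows 5 unigenes of neurotransmitter receptors and ion channels through the adult life of the hypopharyngeal glands (HGs) of worker honey bees, out of 20522 unigenes with a read in any library. They are the ionotropic glutamate receptor TC15827, the kainate-type glutamate receptor match NP9553810, the muscarinic acetylcholine receptor match NP9549495, the GABA-gated ion channel TC13760 and the transient receptor potential (TRP) gamma match NP9551854. A unigene is an assembled transcript, here from the honey bee gene index of DFCI. The 5 were picked by name, from the study or from its annotation of unigenes, with their reads in all 5 libraries already known, and the study had put TC15827 in a group that it chose by its ratios between these libraries. The levels and ratios of the 5 are therefore given as a description and carry no test of their own.

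RNA-seq was done on HGs of Apis mellifera carnica Pollmann workers at 5 ages after emergence, namely day 3, day 6, day 9, day 12 and day 16. The workers were full sisters of 1 colony, whose queen had been inseminated by instrument from a single drone, and none of the groups carried a treatment or an altered gene. Glands of 30 bees were pooled for each age and sequenced as 1 library, so differences between ages lack any check by replicates, and age cannot be told apart from the particular pool. The unique reads, those that match 1 unigene alone, numbered between 1.21 M on day 9 and 1.82 M on day 16. As a share of clean reads they were also lowest on day 9 and highest on day 16. By the study's integrity numbers the RNA was least intact on days 12 and 16. These traits of the libraries cannot be told apart from age either. Below, a run of 5 values follows the order of age, from day 3 to day 16, and a run of 4 ratios to day 3 follows days 6, 9, 12 and 16.

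Ionotropic glutamate receptors, nicotinic acetylcholine receptors and GABA-gated channels open an ion pore when a transmitter binds, whereas muscarinic receptors act through G proteins. TRP channels are cation channels of sensory and signalling cells, and TRP-gamma is known from the fruit fly. In insects glutamate drives the muscles at the nerve endings, acetylcholine is the main fast excitatory transmitter of the brain, and GABA inhibits through chloride channels. The HGs are paired glands in the head that make the protein of royal jelly, and a dissected gland can carry nerve, muscle and trachea with it.

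The study designed primers for quantitative PCR on TC15827 and on DB752140, a shorter unigene that it matched to the same reference transcript. In its PCR values both were lower than on day 3 at every later age. On day 16 the fall of TC15827 was smaller by PCR than by RPKM. The primers are shown as the study's own probes of these unigenes, and their places in the transcript are not known here. Each runs 5′ to 3′ and comes from the study's primer table.
TC15827 forward: caaaaagcccatcaaacagaa
TC15827 reverse: tggacacggtaaagagaacgat
DB752140 forward: cgcataccgtgttttcttgtt
DB752140 reverse: cgtttctccttctcccttcg

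Of the 5, TC15827 had the highest level on day 3 and lost most of it by day 12, while NP9553810, of the same receptor family, started lowest and climbed to the highest level on day 16. NP9549495 and NP9551854 were highest on day 3 and lowest on day 12, and TC13760 stayed between 6.43 and 13.8 RPKM, the reads per kilobase of unigene and per M of the library's unique reads. All 5 had reads in every library, and all 5 held at least 10 reads over the libraries.

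TC15827, 3355 bp long, was counted in 338, 133, 48, 10 and 27 unique reads. As RPKM this was 59.3, 26.1, 11.8, 2.22 and 4.43. The level went down at each step to day 12 and was somewhat higher again on day 16, where it was still far below day 3. Among the unigenes read in each library it lay at percentile 83.4 of RPKM on day 3 and at percentile 15.0 on day 12. Its RefSeq entry in the assembly Amel_HAv3.1 was taken as LOC411220, a protein-coding gene with 2 transcripts, which was looked up by its symbol. The other unigenes were searched only by the RefSeq records named in their descriptions, and that of TC13760 names none. No entry was found for them in this way, which does not show that they lack one.

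The log2 ratio of TC15827 to day 3 was -1.18 (95% exact interval -1.49 to -0.89), -2.32 (-2.79 to -1.88), -4.74 (-5.82 to -3.85) and -3.74 (-4.37 to -3.18). These intervals, like all those given here, cover counting error only. A difference between libraries was called at a false discovery rate (FDR) of at most 0.001 in Audic and Claverie's test over all unigenes with a read in either library, if the log2 ratio was also 1 or more, or -1 or less. The test compares 2 libraries, not 2 ages. TC15827 was called lower in each of the 4 later libraries. Its call on day 6 was lost when a spread between pools with a coefficient of variation of 0.2 was assumed. With that spread no unigene at all was called on day 6. TC15827 also fell from day 6 to day 9, with a log2 ratio of -1.14 (-1.65 to -0.65). A further fall followed between day 9 and day 12, with -2.42 (-3.57 to -1.42). The step from day 12 to day 16 was not called, at 1.00 (-0.09 to 2.21).

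DB752140, 496 bp long, went the same way and serves as a second count of the same reference record. Its unique reads were 85, 26, 9, 6 and 12, an RPKM of 101, 34.5, 15.0, 9.00 and 13.3. It too was called lower at each of the 4 ages, with log2 ratios of -1.55 (-2.24 to -0.90), -2.75 (-3.93 to -1.76), -3.49 (-4.97 to -2.31) and -2.92 (-3.93 to -2.04), and with the assumed spread the calls of days 12 and 16 remained. Per length, the level of TC15827 was 0.588 (0.462 to 0.755) times that of DB752140 on day 3 and 0.246 (0.081 to 0.825) times on day 12. Reads that match both unigenes were not counted in either, so the 2 levels are not parts of 1 total.

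NP9553810 moved the other way. This unigene of 2592 bp has its best protein match in the ionotropic kainate 2 receptor of the ant Harpegnathos saltator, and its own description is a bee gene similar to fly CG3822. It was counted in 8, 26, 28, 39 and 83 unique reads, or 1.82, 6.61, 8.95, 11.2 and 17.6 RPKM. Each library had more than the one before it, and day 3 stood lowest.

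Set against day 3, the log2 ratio of NP9553810 was 1.86 (0.68 to 3.21) on day 6, where it was not called. It was called higher in the 3 libraries that followed, with ratios of 2.30 (1.13 to 3.64), 2.62 (1.50 to 3.93) and 3.28 (2.23 to 4.54). These 4 comparisons share the 8 reads of day 3. Without that library it was called higher on day 16 than on day 6, with a log2 ratio of 1.42 (0.77 to 2.11), while day 16 against day 12 was not called at 0.66 (0.09 to 1.24). With the assumed spread between pools its call remained on day 16 and was lost on days 9 and 12.

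The 2 glutamate receptors thus changed places within the gland libraries. The RPKM of TC15827 was 32.6 (16.4 to 76.2) times that of NP9553810 on day 3, then 3.95 (2.58 to 6.27) times and, by day 9, 1.32 (0.81 to 2.19) times. On day 12 NP9553810 stood 5.05 (2.47 to 11.3) times above TC15827, and on day 16 3.98 (2.55 to 6.39) times. The interval held 1 on day 9 alone, the library between the 2 orders. This ratio is taken within each library and so does not depend on how libraries are scaled against each other.

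**Figure D1:**
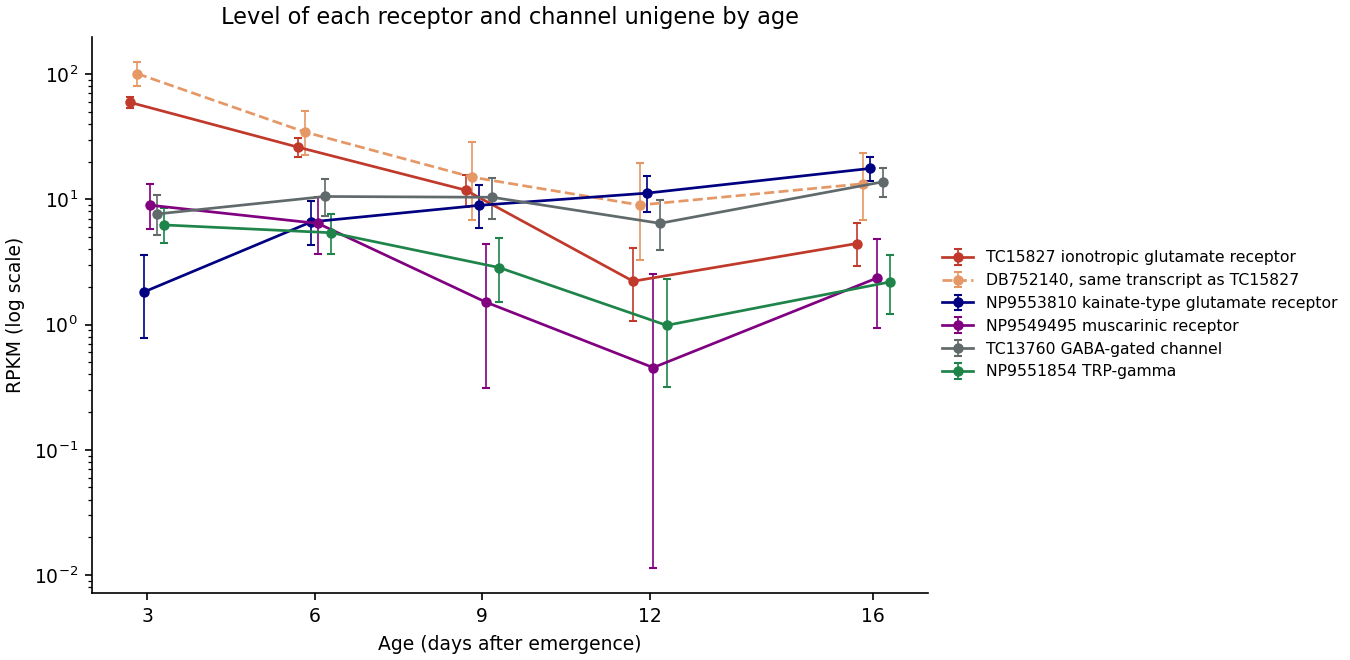
The level of each of the 5 unigenes, and of DB752140, as RPKM on a log axis against age in days; each point is 1 library of 30 pooled bees, points of a day are set slightly apart, and bars are 95% exact Poisson intervals, which cover counting error only. TC15827 goes from 59.3 to 2.22 RPKM by day 12 and crosses NP9553810, which goes from 1.82 to 17.6 RPKM by day 16.

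The annotation held 4 other ionotropic glutamate receptor unigenes, and none of them was called against day 3. Of all named unigenes in it with at least 10 reads, at most 4.76% were called higher and 1.47% lower at any age. NP9553836, a kainate 2 match in the ant Camponotus floridanus, had 23, 15, 4, 14 and 15 unique reads. The kainate 1 match NP9553345 had 7, 5, 4, 7 and 12 reads. The NMDA-type subunit 1 unigene NP1607965 had 4, 3, 0, 2 and 6 reads, and BI513055, another piece with that name, had 3 and 2 reads on days 3 and 6 and 0 after that. At these depths, where a count of 0 allows up to 3 reads, differences of the size seen in TC15827 or NP9553810 could be missed in the last 3. The 5 listed unigenes, NP9553810 included, summed to 26.5, 33.6, 29.8, 46.1 and 63.9 RPM (unique reads per M of the library).

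NP9549495, 1642 bp long, has its best match in a putative muscarinic acetylcholine receptor of Anopheles gambiae, and is described as similar to fly CG7918. It was counted in 25, 16, 3, 1 and 7 unique reads, or 8.97, 6.42, 1.51, 0.453 and 2.35 RPKM. Days 3 and 6 stood above the later libraries. Against day 3 the log2 ratio was -0.48 (-1.49 to 0.48), -2.57 (-4.94 to -0.85), -4.31 (-9.67 to -1.70) and -1.93 (-3.39 to -0.68). It was called lower on day 12 alone, on a single read, and that call was lost with the assumed spread and with TMM scaling, which sets libraries against each other by a trimmed mean of their ratios.

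Of the 9 nicotinic receptor unigenes in the annotation none was called against day 3. But only 5 of the 10 acetylcholine receptor unigenes, NP9549495 among the 5, had at least 10 reads. Among all named unigenes of that annotation with at least 10 reads, the largest shares called were 4.76% higher, on day 16, and 1.47% lower, on day 12. The alpha9 subunit TC12410 had 7, 20, 20, 24 and 18 unique reads, so it was lowest where NP9549495 was highest. With TMM scaling TC12410 was called higher on day 12, at a log2 ratio of 2.72. The alpha subunit match NP9546138 had 26, 23, 11, 6 and 16 reads. The 10 acetylcholine receptor unigenes, NP9549495 included, summed to 47.7, 45.4, 38.1, 26.8 and 28.1 RPM. Acetylcholinesterase 2, the unigene TC22460 of 13210 bp, whose enzyme splits acetylcholine, had 193, 102, 62, 69 and 75 reads. Its log2 ratio to day 3 was -0.76 (-1.12 to -0.41), -1.15 (-1.58 to -0.73), -1.15 (-1.57 to -0.74) and -1.46 (-1.87 to -1.07), and the last 3 were called lower, none of them with TMM scaling or the assumed spread.

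TC13760, 2313 bp long, is a honey bee GABA-gated ion channel. It was counted in 30, 37, 29, 20 and 58 unique reads, an RPKM of 7.64, 10.5, 10.4, 6.43 and 13.8. The highest library, day 16, was 2.15 times the lowest, day 12, the smallest range among the 5. No comparison of libraries was called for it, and the largest log2 ratio to day 3 was 0.85 (0.19 to 1.54) on day 16. With TMM scaling that ratio was called higher, and the other 3 ratios to day 3 were not called.

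The reads of TC13760 covered much less of the unigene than their number would allow. Between 24.9% and 28.9% of its length was covered, 575 to 669 bases, in every library. If the reads of 49 bases had lain evenly, 34.5% would be covered on day 12 and 70.7% on day 16. In the other 4 unigenes coverage was larger where reads were more, from 13.9% to 74.6% in TC15827 and from 12.0% to 67.9% in NP9553810. TC15827 too was covered less than evenly lying reads would give where it had most reads, with 74.6% against 99.3% on day 3 and 62.1% against 85.7% on day 6. Which bases were covered is not given by the files.

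**Figure D2:**
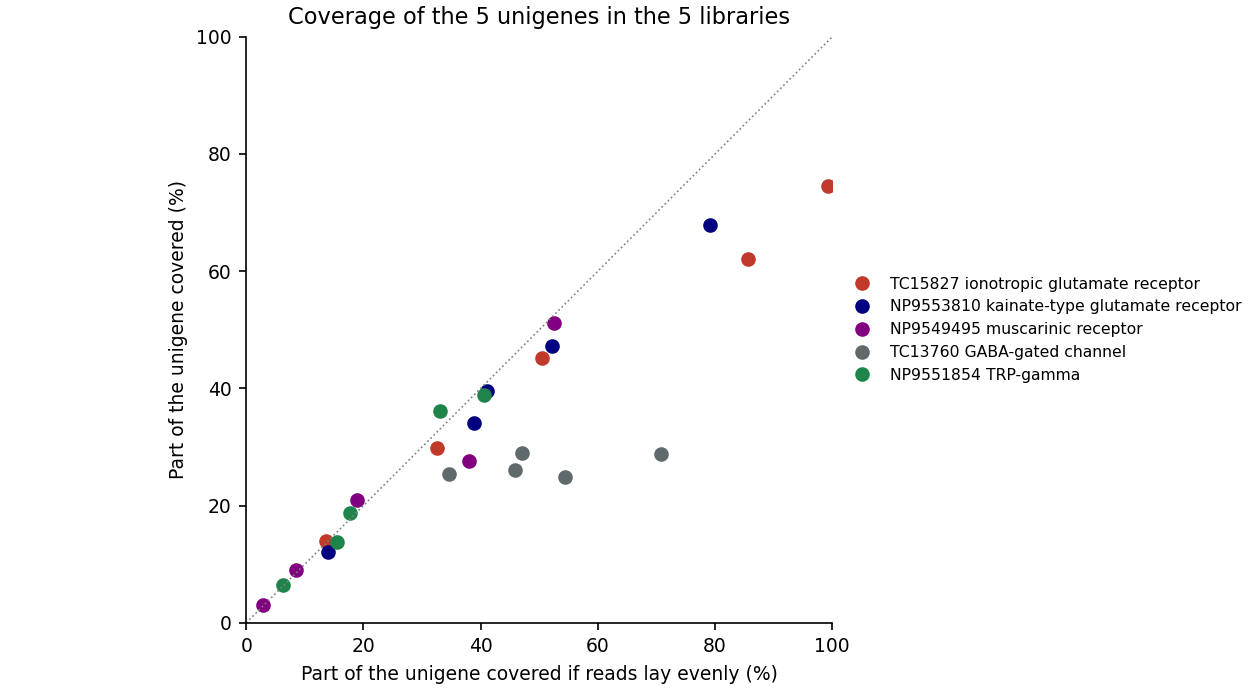
Part of each unigene covered by unique reads against the part expected if the reads lay evenly, both in percent; each point is 1 unigene in 1 library and the dotted line marks equality. TC13760 stays between 24.9% and 28.9% while its expected coverage goes from 34.5% to 70.7%, and TC15827 on day 3 lies at 74.6% against 99.3%.

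The list of ligand-gated chloride channels takes in TC13760 by its wording, though its label names no ion. After TC13760, the histamine-gated channel TC12440 had the most reads there, with 21, 20, 8, 32 and 28. The 15 unigenes of that list summed to 67.1, 62.6, 49.7, 58.0 and 69.4 RPM. None of them was called at any age against day 3, but only 8 of the 15 had at least 10 reads. Of the named unigenes with at least 10 reads, at most 4.76% were called higher and 1.47% lower at any of these ages.

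NP9551854, the longest of the 5 at 3774 bp, has its best match in the TRP-gamma protein of Harpegnathos saltator. It was counted in 40, 31, 13, 5 and 15 unique reads, or 6.24, 5.41, 2.85, 0.986 and 2.19 RPKM. Days 3 and 6 were high and day 12 was lowest. The log2 ratio to day 3 was -0.21 (-0.93 to 0.51), -1.13 (-2.16 to -0.20), -2.66 (-4.36 to -1.32) and -1.51 (-2.47 to -0.62). It was called lower on day 12, both against day 3 and against day 6 (-2.46, -4.18 to -1.08). The call against day 3 was lost with TMM scaling and with the assumed spread between pools.

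A shorter unigene with the same TRP-gamma match, BI510168 of 645 bp, had 6, 6, 2, 0 and 0 unique reads. Its reads were thus also fewest late, at counts where 0 allows up to 3 reads. TC16362, a match to pyrexia, known in the fruit fly as a heat-gated channel, had 36, 34, 20, 19 and 38 reads, and NP9552788, a match to TRP subfamily V member 6, had 47, 30, 10, 20 and 20. The list of TRP and related cation channels also holds other matches, such as pickpocket 13 and a ryanodine receptor. Its 11 unigenes summed to 107, 93.5, 58.0, 52.8 and 63.3 RPM.

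Counted together against day 3, the 5 unigenes gave 0 called higher and 1 lower on day 6, where 0.863% of all unigenes tested were called in either direction (0.574% higher, 0.289% lower). On day 9 they gave 1 higher and 1 lower beside 7.58% of all (1.27% higher, 6.31% lower). On day 12 they gave 1 higher and 3 lower beside 14.3% (1.8% higher, 12.5% lower), and on day 16 1 higher and 1 lower beside 12.4% (2.51% higher, 9.9% lower). Since the unigenes were picked with these ratios known, nothing is read from the counts. Their median log2 ratio was -0.21, -1.13, -2.66 and -1.51, beside -0.20, -0.47, -0.65 and -0.50 for the 15538 unigenes with at least 10 reads.

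**Figure D3:**
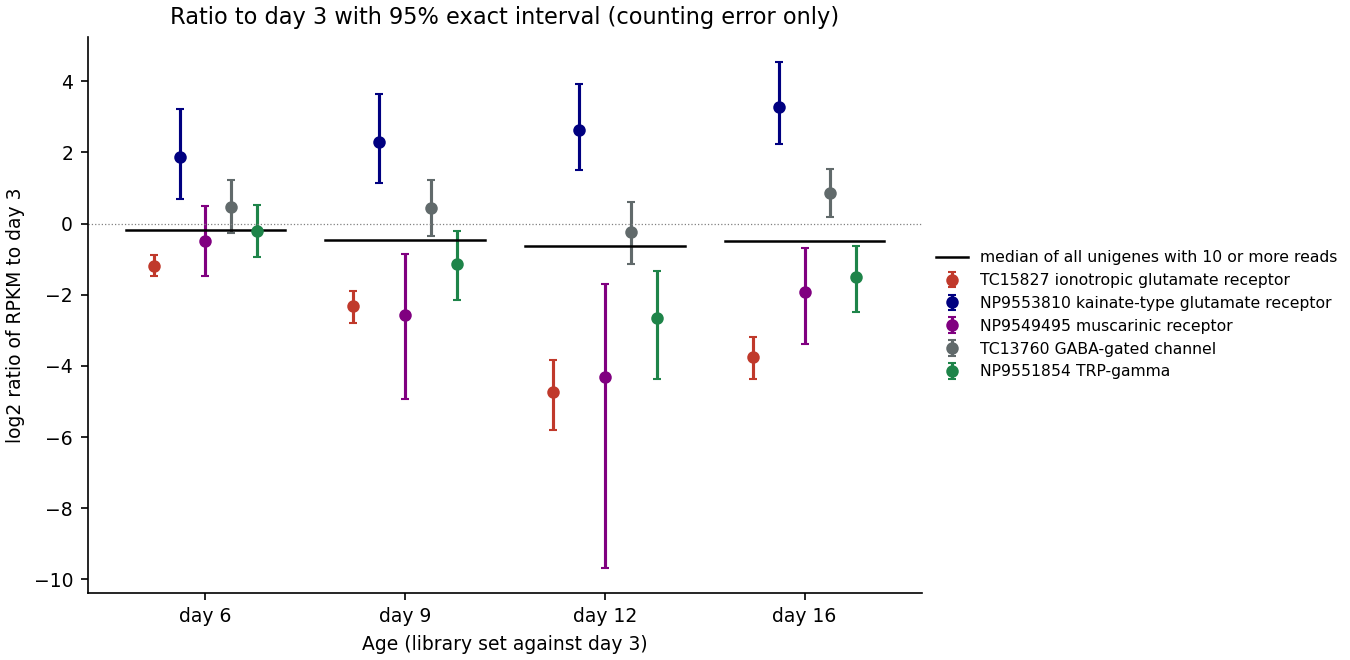
The log2 ratio of RPKM to day 3 of each of the 5 unigenes on days 6, 9, 12 and 16, with 95% exact intervals for counting error only; black bars are the median of all unigenes with at least 10 reads, and every ratio shares the day 3 library. TC15827 lies below the median and NP9553810 above it at all 4 ages, and the interval of NP9549495 on day 12 runs from -1.70 to -9.67.

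In the 6 comparisons that leave out day 3, TC15827 was called most often. On day 9 against day 6 only TC15827 was called, beside 1.18% of all unigenes (0.378% higher, 0.803% lower). It was again the only one on day 12 against day 9, beside 2.23% (0.788% higher, 1.44% lower), and when day 16 was set against day 9, beside 2.98% (1.54% higher, 1.45% lower), lower each time. TC15827 and NP9551854 were called lower on day 12 than on day 6, beside 7.59% (1.19% higher, 6.41% lower). On day 16 against day 6 TC15827 was called lower and NP9553810 higher, beside 5.59% (1.92% higher, 3.67% lower). None was called on day 16 against day 12, beside 3.08% (2.33% higher, 0.748% lower), although the RPKM of all 5 was higher on day 16.

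How libraries are scaled bears on the lower calls. TMM scaling raised every log2 ratio to day 3 by 0.15, 0.40, 0.60 and 0.47. With the totals of unique reads, 347 unigenes were called higher and 2411 lower on day 12, so 12.6% of the calls were higher. TMM scaling made this 46.0%, and the share went from 66.5% to 87.4% for day 6, from 16.7% to 52.6% for day 9, and for day 16 from 20.3% to 52.4%. TC15827 was called lower at all 4 ages under either scaling, and NP9553810 higher on days 9, 12 and 16.

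The order of the 5 by RPKM also turned over with age. On day 3 it ran TC15827, NP9549495, TC13760, NP9551854, NP9553810, and neither NP9549495 and TC13760 nor TC13760 and NP9551854 differed beyond counting error. On day 6 only TC15827 differed from its neighbour, at 2.48 (1.71 to 3.67) times TC13760. By day 16 the order was NP9553810, TC13760, TC15827, NP9549495, NP9551854, and the one gap beyond counting error was TC13760 over TC15827, at 3.12 (1.94 to 5.12) times. Day 12 had NP9553810 first as well, at 1.74 (0.99 to 3.15) times TC13760. RPKM divides by the full length of a unigene, and at most 28.9% of TC13760 was covered in any library. A gap in RPKM between 2 unigenes thus need not be one in transcripts.

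Unigenes with the most similar course were found for each of the 5 by the root mean square difference of centred log2(RPKM + 0.1) over the 5 libraries, among the 10546 unigenes with at least 50 reads. Nearest to NP9553810 were NP9549071, a RING finger protein 31 match with 43, 118, 140, 197 and 428 reads (difference 0.0771), TC20219, similar to fly CG3960 with 38, 114, 148, 186 and 479 reads (0.144), and NP9550883, a match to the muscle M-line protein unc-89 with 109, 405, 498, 530 and 1290 reads (0.155). All 3 were highest on day 16 and lowest on day 3, as NP9553810 was, which follows from how they were picked. For TC15827 the nearest unigenes were TC22771, TC13735 and BI506762, for which the annotation gave no name. That annotation holds only unigenes read on day 3 with an RPKM below 10, so no other unigene could have a name here. The nearest with a name in it were TC14745, TC23970 and TC23989, at differences of 0.587 to 0.629. These are similar to fly CG8927, or match discoidin domain receptor 2 and Down syndrome cell adhesion molecule, in that order.

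NP9551854 had its nearest named unigene in neuroligin 5, TC14368, a protein of synaptic contacts (difference 0.0866), followed by the D2-like dopamine receptor TC12305 (0.142) and a Frizzled-7 match, TC18147 (0.142). Neuroligin 5 had 44, 29, 13, 5 and 14 reads, close to the counts of NP9551854 in each library. The nearest named unigene was TC23989 again for NP9549495 (0.353), and for TC13760 it was TC16481, a putative mitochondrial transferase (0.0689). These are likenesses over 5 libraries shared by all unigenes, given as a description.

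Other receptors and channels were looked up by name in the annotation, which holds only unigenes read on day 3 with an RPKM below 10 there. TC15827 and DB752140 are therefore not in these lists, no listed unigene could be at 0 on day 3, and few had reads enough to be called lower. The 6 lists held 102 unigenes, 4 of the 5 described here among them, and 67 had at least 10 reads over the libraries. A few were taken in by their wording alone, such as TC23869, a methyltransferase match, in the TRP list.

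Of the 67, RPKM was lower than on day 3 in 49, 49, 55 and 48 at the 4 ages, and with TMM scaling in 41, 42, 47 and 41. Their median log2(RPKM + 0.1) difference was -0.25, -0.87, -1.03 and -0.76, beside 0.02, -0.13, -0.24 and -0.09 for the 3805 named unigenes of the same annotation with at least 10 reads. The test called 0 higher and 0 lower, 1 and 0, 1 and 4, and 2 and 1 at the 4 ages. Among the named unigenes 0.631%, 1.79%, 2.89% and 4.76% were called higher, and 0%, 0.158%, 1.47% and 0.657% lower. Without the 4 described above the counts were 0 and 0, 0 and 0, 0 and 2, and 1 and 1 of 63. With TMM scaling no unigene of the lists was called lower at any age.

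The receptors for amines and peptides and the metabotropic glutamate receptors, which act through G proteins as the muscarinic receptor does, were lower most evenly among the 6 lists. Of the 15 of these unigenes with at least 10 reads, RPKM was lower than on day 3 in 15, 13, 15 and 14 at the 4 ages, and with TMM scaling in 14, 12, 15 and 12. Of the named unigenes with at least 10 reads, 49.1%, 56.4%, 59.0% and 54.5% were lower without that scaling. The 21 of the list summed to 144 (127 to 164), 98.1 (83.0 to 115), 72.0 (57.7 to 88.9), 38.7 (28.9 to 50.7) and 65.0 (53.8 to 77.8) RPM. The sum was thus highest on day 3 and lowest on day 12. Only unigenes read on day 3 could enter the list, which by itself favours a high sum there. On day 12, 9 of the 21 in the list were at 0.

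Its unigenes with most reads were the octopamine receptor beta-2R match NP9550194, with 21, 17, 13, 10 and 29 reads, and the tyramine receptor TC12424, with 29, 22, 9, 8 and 10. The called ones, chosen after their values were seen, were serotonin receptor 7, TC12295, with 19 reads on day 3 and 1 on day 12, and NP9553158, a louse G protein-coupled receptor match, with 16 and 0. On day 16 only a somatostatin receptor type 2 match, NP9553627, was called lower, with 3 reads against 21. The 41 voltage-gated and potassium channel unigenes, which shape the spikes of excitable cells, summed to 152, 128, 96.9, 72.9 and 98.0 RPM. Of these the calcium channel beta subunit match TC16596 had 34, 21, 6, 10 and 15 reads, and TC22752, described as like an L-type calcium channel, had 19, 19, 10, 10 and 15. DB752459 in the voltage-gated and potassium channel list, also chosen after its values were seen, was called higher on day 16, with 26 reads against 4. The lower calls were lost with TMM scaling, and all 4 calls with the assumed spread.

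**Figure D4:**
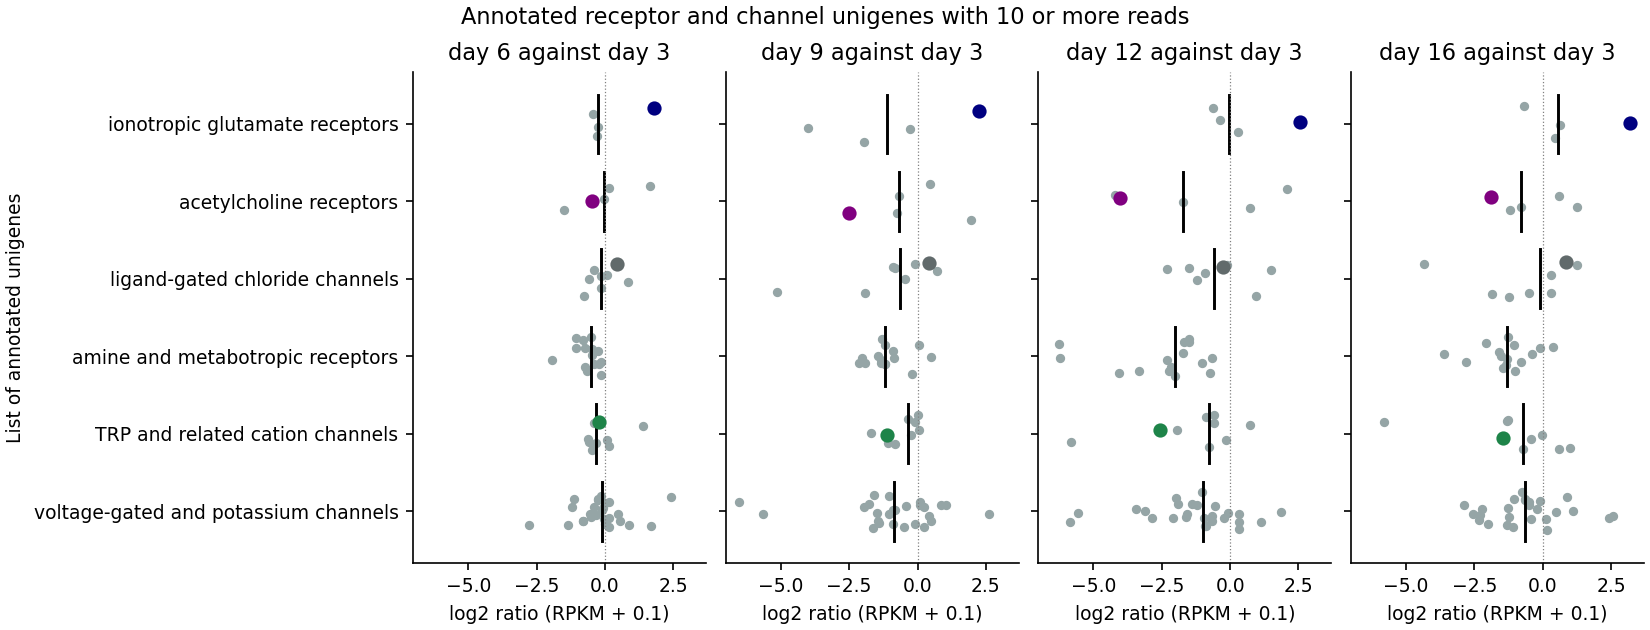
The log2 ratio of RPKM + 0.1 to day 3 for the 67 annotated receptor and channel unigenes with at least 10 reads, in 6 lists and 4 panels by age; each point is a unigene, large coloured points are the 4 described in the text (blue NP9553810, purple NP9549495, dark grey TC13760, green NP9551854), and black bars are list medians. On day 12 the median of the amine and metabotropic receptors is -2.01 and NP9553810 lies farthest to the right.

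Of the other handlers of transmitters, the dopamine transporter TC12374, which takes dopamine back up into cells, had 20, 19, 12, 41 and 116 unique reads. It was called higher on day 16, with a log2 ratio to day 3 of 2.44 (1.75 to 3.20), and also with TMM scaling, Fisher's exact test and the assumed spread. Days 12 and 16 stood above the 3 earlier libraries. It was the only one called higher among the 18 unigenes with at least 10 reads in the list of transmitter synthesis and transport, and acetylcholinesterase 2 the only one called lower. Among the named unigenes 4.76% were called higher and 0.657% lower on day 16. With TMM scaling the dopamine transporter was called higher on day 12 as well.

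Markers of other tissues moved with age in the same libraries. The 39 muscle markers summed to 246, 618, 950, 999 and 1719 RPM, with 5, 8, 14 and 17 of the 34 with at least 10 reads called higher and 0 lower, beside 0.631%, 1.79%, 2.89% and 4.76% of the named unigenes called higher. With the assumed spread between pools 0, 3, 6 and 10 of them were called higher, and on day 6 no unigene at all was. RPKM was lower than on day 3 in 6, 7, 8 and 9 of the 34 at the 4 ages. The unc-89 match NP9550883 gave 109 of the list's 417 reads on day 3 and 1290 of its 3122 on day 16. Between 0 and 4 of the 39 were at 0 in a library. Their sum was thus lowest on day 3 and highest on day 16, as NP9553810 was, though only unigenes below 10 RPKM on day 3 could be listed. The part of these markers in the ratios of NP9553810 was not tested.

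The 24 markers of neurons and synapses summed to 110 (94.9 to 127), 102 (86.6 to 119), 96.9 (80.1 to 116), 55.8 (43.9 to 69.9) and 81.5 (68.9 to 95.8) RPM. Of them 11 were at 0 on day 12, against 2 to 4 on days 6, 9 and 16. Of the 18 with at least 10 reads, RPKM was higher than on day 3 in 11, 8, 3 and 7 at the 4 later ages. The 2 with most reads differed in course. Rab-3 (TC21246) had 15, 23, 23, 25 and 21 reads, and neuroligin 5 (TC14368) had 44, 29, 13, 5 and 14. The sum of the neuron markers was lowest on day 12, as were TC15827, NP9549495 and NP9551854. The part of these markers in the ratios of those unigenes was not tested. The log2 ratio of their sum to day 3 was -0.98 (-1.39 to -0.59) on day 12, where that of TC15827 was -4.74, and with TMM scaling the sum was -0.38 on day 12 and above day 3 at the other ages. The 10 glia markers summed to between 47.6 and 64.5 RPM.

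The 8 fat body markers summed to between 12.6 and 22.6 RPM and the 6 haemocyte markers to between 82.3 and 145. The 23 unigenes matched by words for photoreceptors summed to 93.1 RPM on day 3 and 277 RPM on day 16. TC22318, a match to an alpha-tocopherol transfer protein, gave 1 of the list's 158 reads on day 3 and 328 of its 503 on day 16, and without it the sums were 92.5 and 96.4 RPM. The 47 unigenes matched by words for gland secretion summed to 146 RPM on day 3 and 461 RPM on day 16. Of these reads TC12355, major royal jelly protein 9, gave 3 of 248 on day 3 and 525 of 837 on day 16, and without it the sums were 144, 206, 415, 297 and 172 RPM. Royal jelly unigenes with an RPKM of 10 or more on day 3 are not in that list, while matches to tubulin polyglutamylase and to Supporter of activation of yellow protein are, through their wording, and were kept. In these pooled glands, fewer cells of a type and less RNA per cell cannot be told apart.

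**Figure D5:**
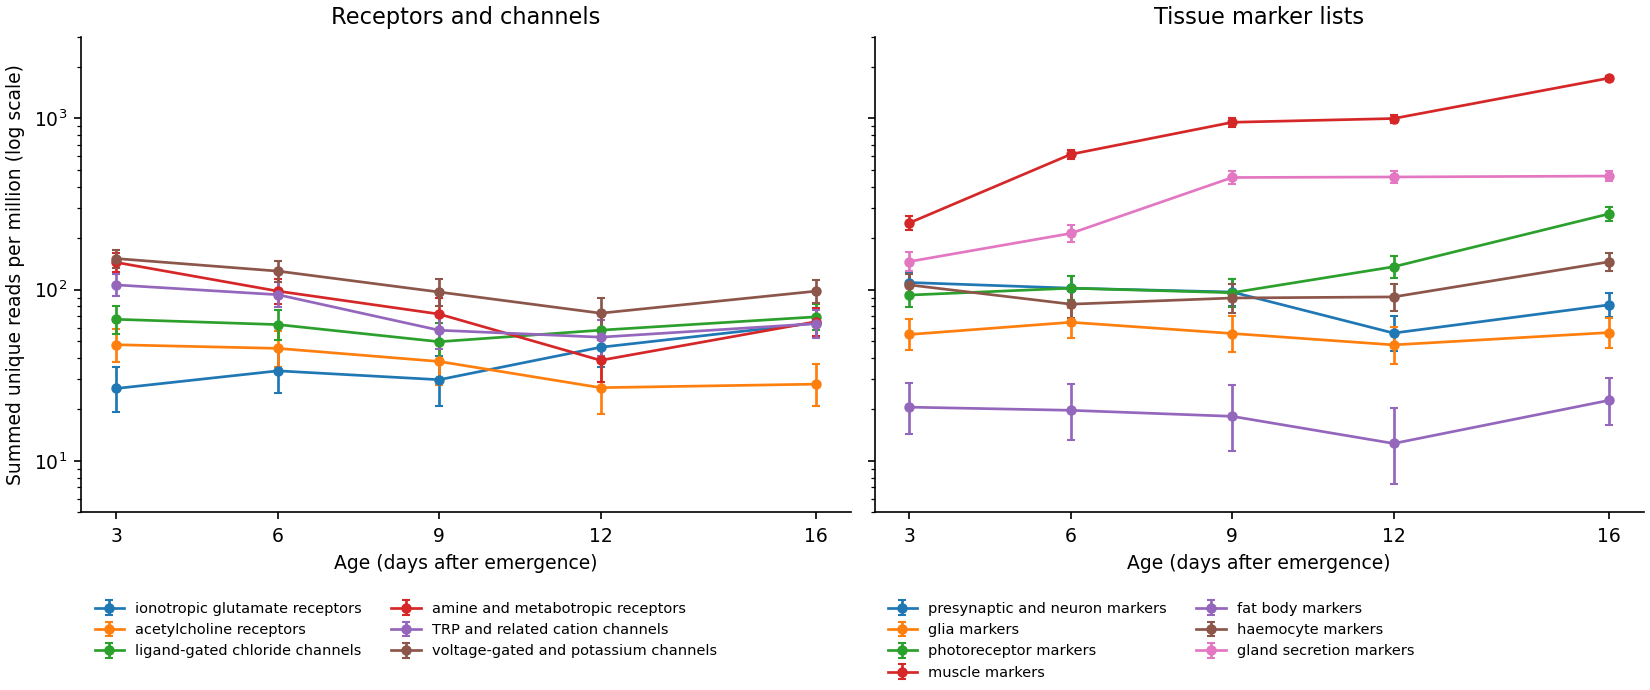
Summed unique reads as RPM on a log axis against age in days, for the 6 receptor and channel lists (left) and the 7 lists of tissue markers (right); each point is 1 library and bars are 95% exact Poisson intervals for counting error only. Muscle markers go from 246 to 1719 RPM, and the amine and metabotropic receptors from 144 on day 3 to 38.7 on day 12.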

How the data were processed

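HGs of 30 bees per age were sequenced as 1 library per age. The authors mapped clean reads with SOAP2 (version not given in the sources used here) to unigenes, allowing at most 2 mismatches. They deposited the count of reads unique to each unigene, its RPKM, and its coverage as a fraction of the length. The deposited annotation of 7628 unigenes holds text, 5752 with a name. Groups came from the labelled ages.

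Counts were set against the unique totals and compared by the two-sided test of Audic and Claverie, with Benjamini-Hochberg adjustment over all unigenes read in either library. The FDR of 0.001 and log2 ratio of 1 are the study's, the test was chosen here, and it was tested on simulated data. Intervals are 95% exact, from Poisson counts or the binomial share of 2 counts, and PCR copies are not independent molecules. Python 3.11.15 with scipy 1.17.1 was used, and edgeR 4.0.16 (TMM, a coefficient of variation of 0.2) and DESeq2 1.42.0 (size factors) in R 4.3.3 gave alternatives. The list medians and the nearest profiles use log values with a pseudocount of 0.1 RPKM. The log2 ratios given with an interval, and those behind the calls of the main test, have no pseudocount.

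The members and the 14 gene lists were chosen with earlier results of these data known. The text names the 5 members, DB752140, the 2 unigenes of most reads in each list it describes, those called at 2 or more ages (at most 10 a list), some of the nearest profiles (3 a member at most), and others where stated.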

Additional observations from a re-analysis of the deposited data

How the results depend on the processing

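No paired analysis was possible because each age has 1 library. All 80 alternative values of the 20 ratios of the 5 unigenes to day 3 (TMM, DESeq2 size factors, pseudocounts of 0.1 and 1 RPKM) stayed inside the counting interval of the ratio, and none changed sign where it was called. Of 62 alternative values of 16 counts of calls, 44 stayed within 1.5 times the count given. With an assumed coefficient of variation of 0.2 between pools, the members called became 0 lower on day 6, 0 higher on day 9 and 0 higher and 1 lower on day 12, and the listed receptors and channels 0 higher on day 9, 0 higher and 0 lower on day 12, and 1 higher and 0 lower on day 16. With TMM, the members became 1 lower on day 12 and 2 higher on day 16, and the lists 2 higher and 0 lower on day 12 and 0 lower on day 16. Against day 6 in place of day 3, the lists gave 0 higher on day 9, 0 higher and 1 lower on day 12, and 0 lower on day 16. Fisher's exact test and no minimum of reads left each count within that range. The cause of these changes was not tested, other than that TMM shifts every ratio to day 3 upward. The values of named unigenes and lists under other scalings, and the sums without TC12355 or TC22318, were added after seeing the data. Depth limits the members with few reads most, since NP9549495 rests on 1 read on day 12 and 3 on day 9.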

Other observations

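TC14368, the neuroligin 5 unigene, of a family of adhesion proteins of synapses, had 44, 29, 13, 5 and 14 unique reads in the order of age and was called lower than on day 3 on day 12, with a log2 ratio of -2.80 (-4.49 to -1.47), and on day 16, with -1.75 (-2.73 to -0.85). Neither call held with TMM scaling or with an assumed coefficient of variation of 0.2 between pools. NP9553098 has a neuroligin-1 match but is described as similar to Gliotactin and also stands in the glia list. It had 24, 25, 16, 9 and 21 reads, and NP9549329, named neuroligin 1, had 3, 6, 5, 7 and 11, and neither was called. No test compared these courses. Rab-3, a GTPase of synaptic vesicles, in TC21246, had 15, 23, 23, 25 and 21 reads and was not called.

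The nicotinic receptor alpha6 unigenes TC12406 and TC12405 had 5 and 2 reads on day 3 and 0 on days 12 and 16, and the beta2 unigene TC12418 had 3, 3, 3, 4 and 5. None was called, and at these counts no order among them is read. Reads shared by near-identical copies are left out of the unique counts, so the levels of such pairs are uncertain.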
